A study of Mus musculus with 10 samples.

Results

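The 10 mouse RNA libraries of this series fall into 2 sets that the site labels do not name. The 6 libraries of tumour numbers 25, 38 and 72 (metastasis and primary of each) held transcripts of leukocytes, and the 4 libraries of numbers 35 and 36 (metastasis and primary of each) held next to none. All 10 of the 10 libraries are used here, and each number contributed 1 metastasis and 1 primary library. The sets were chosen by measured values of these same libraries, those of the leukocyte genes Lyz2, C1qa and Ptprc among them, so every difference between the 6 and the 4 is given as a description, with no test.

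The study worked in FVB mice with Ink4a.1, a mouse pancreatic cancer cell line injected orthotopically, that is, into the pancreas. The groups are liver metastasis 25, 38 and 72 and primary tumour 25, 38 and 72, which make up the 25/38/72 libraries, and liver metastasis 35 and 36 and primary tumour 35 and 36, which make up the 35/36 libraries. All were labelled as pancreas tumour from FVB mice, as untreated cell lines at 90% confluence, and as polyadenylated RNA extracted with RNeasy kits. The cell line label of every primary library reads Ink4a, and that of each metastasis library carries its number. The series' design text speaks of lines from the metastases of 4 mice and of the parental line, whereas 5 metastasis numbers are labelled. Neither animal age nor the alleles of the Ink4a.1 line are given in the sources used here, nor whether libraries of 1 number came from 1 animal or whether replicates were separate cultures. P-values given below for site therefore measure only the spread between these libraries, which may be technical in part.

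Carcinoma cells that spread from the pancreas grow among macrophages, fibroblasts, vessels and cells of the organ around them, and RNA from a whole tumour is the sum over all of these cells. The tumour cell programme is described below by gene lists, among them those of the cell cycle, ribosome building, sterol synthesis and epithelial and mesenchymal genes. In such bulk RNA, fewer cells of a type and less RNA per cell cannot be told apart.

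Values are FPKM, fragments per kilobase of transcript and per 1 M fragments, as deposited. Depth, read from the steps between the values of single-exon genes, lay between 15.6 and 30.3 M fragments, lowest in metastasis 25. If that library was not scaled to its own total, its estimate would be too low: its FPKM sum was 939415, against 563509 to 644314 in the other 25/38/72 libraries and 619379 to 653161 in the 35/36 libraries. Genes with at least 1 FPKM numbered between 13497 and 14493 in the 25/38/72 libraries, against 11923 to 12112 in the 35/36 libraries. Values of the 35/36 libraries stand below in the order metastasis 35, metastasis 36, primary 35 and primary 36, and those of the 25/38/72 libraries as lowest, highest and median.

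A minimum of 1 FPKM in 4 or more of the 10 libraries left 13758 genes for comparison. A gene is called higher or lower when all 6 of its 25/38/72 values lie on that side of all 4 of its 35/36 values and the means of log2(FPKM + 1) differ by at least 1. By this rule 2026 genes were higher, 14.7% of those kept, and 1925 were lower, 14.0%, while 9807 met neither condition. With quantile normalization the split was 1525 higher and 2170 lower, so that the higher genes made up 41.3% of the calls in place of 51.3%. The median difference of all genes kept, 25/38/72 minus 35/36, was -0.035 on the log2(FPKM + 1) scale, and it was -0.147 after quantile normalization. Differences below are on this scale, on which those of low genes are understated. Counts of list members called higher or lower stand against the shares of 14.7% and 14.0% over all genes kept. A gene under 1 FPKM in all of the 35/36 libraries is kept only through the 25/38/72 libraries, which favours a higher call. Counts of higher genes in lists made up mostly of such genes are no result of their own.

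The higher genes had a median difference of 1.80, with quartiles at 1.34 and 2.61 and a maximum of 8.98, and 161 of them differed by at least 4. The lower genes had a median of -1.43, with quartiles at -1.83 and -1.18, and 11 of them differed by at least 4 in size, of which 4 carry an annotated symbol. The largest difference of either direction was a lower one, -11.13, of the unnamed gene model Gm25745. Under limits chosen after the values were seen, 98 genes (0.712%) had at least 5 FPKM in all of the 25/38/72 libraries and under 0.5 FPKM in all of the 35/36 libraries. The reverse held for 2 genes (0.0145%), the unnamed gene models Gm23245 and Gm25745. Among genes kept, the median SD of the log2 values was 0.46 over the 6 and 0.14 over the 4 libraries.

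**Figure D1:**
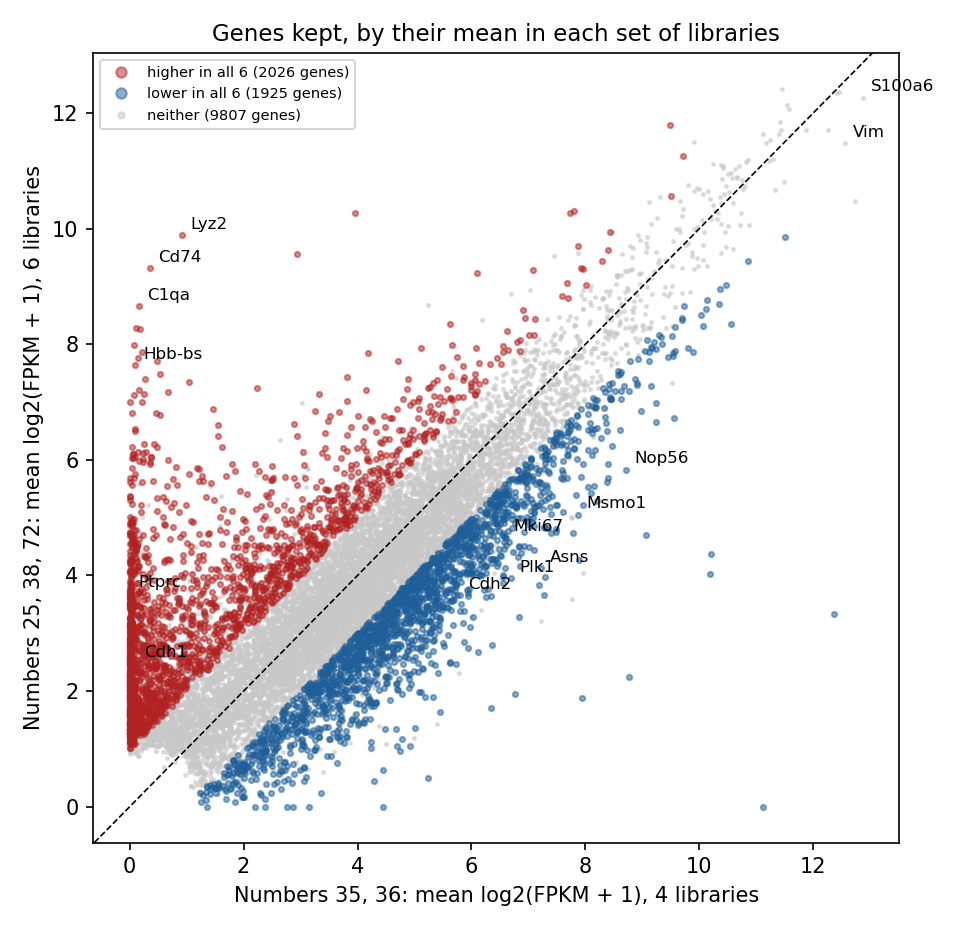
Each point is 1 of the 13758 genes kept, placed by its mean log2(FPKM + 1) over the 35/36 libraries (horizontal axis) and over the 25/38/72 libraries (vertical axis), with 2026 genes higher in red, 1925 lower in blue and 9807 of neither call in grey; the dashed line marks equal means. Many higher genes stand near 0 on the horizontal axis, while most lower genes run as a band below the line, with values in both sets.

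Promoter sequence is shown for 2 genes each of the macrophage, mitosis and cholesterol synthesis lists, to let the letters behind the motif counts be seen. They are the members with the largest differences whose windows hold the motif named for the list, so their matches are a choice and no result. The windows are the 250 bases before the gene's start in RefSeq on the gene's own strand, build GRCm38.p6, and that start can differ from the GENCODE one: 214 bases of the Msmo1 window and 17 of the Lss window lie inside the GENCODE gene. Capitals mark every match, on either strand, of the 4 motifs searched, each of which is spelled out below. GAGGAA is the purine-rich core bound by the myeloid factor PU.1, and it is marked in Ctss (chr3:95526536-95526785, plus strand) and C1qb (chr4:136886201-136886450, minus strand), the first a protease of the endosomes of macrophages and the other a chain of complement component C1q.
Ctss: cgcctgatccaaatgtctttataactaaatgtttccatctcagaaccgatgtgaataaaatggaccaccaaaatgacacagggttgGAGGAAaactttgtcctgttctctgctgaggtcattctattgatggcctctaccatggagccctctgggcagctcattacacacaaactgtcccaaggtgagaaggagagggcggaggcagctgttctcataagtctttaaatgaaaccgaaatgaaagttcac
C1qb: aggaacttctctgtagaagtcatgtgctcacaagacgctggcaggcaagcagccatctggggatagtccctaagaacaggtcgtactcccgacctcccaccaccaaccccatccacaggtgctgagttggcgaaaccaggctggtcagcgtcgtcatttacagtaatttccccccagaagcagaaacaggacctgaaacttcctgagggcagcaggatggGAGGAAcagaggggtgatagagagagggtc

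CCAAT, the box bound by the factor NF-Y, and TTTGAA, an element found near the starts of cell cycle genes, are marked in Kif11 (chr19:37376132-37376381, plus strand), which encodes a motor of the mitotic spindle, and in Cdk1 (chr10:69352913-69353162, minus strand), the kinase that drives entry into mitosis. Cdk1 also holds a GAGGAA match.
Kif11: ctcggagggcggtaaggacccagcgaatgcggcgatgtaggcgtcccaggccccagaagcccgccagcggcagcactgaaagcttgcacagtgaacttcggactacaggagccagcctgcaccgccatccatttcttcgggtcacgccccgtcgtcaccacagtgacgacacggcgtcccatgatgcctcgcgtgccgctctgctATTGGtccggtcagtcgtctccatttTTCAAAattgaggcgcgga
Cdk1: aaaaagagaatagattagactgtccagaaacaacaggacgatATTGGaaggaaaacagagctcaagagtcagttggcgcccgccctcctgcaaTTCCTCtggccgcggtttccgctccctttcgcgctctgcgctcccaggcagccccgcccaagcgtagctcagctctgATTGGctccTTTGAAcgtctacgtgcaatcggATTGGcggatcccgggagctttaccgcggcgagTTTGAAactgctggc

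CCAAT is marked in Msmo1 (chr8:64733579-64733828, minus strand) and Lss (chr10:76531355-76531604, plus strand), which encode a methylsterol oxidase and lanosterol synthase of the cholesterol pathway. Msmo1 also holds a match of TGANTCA.
Msmo1: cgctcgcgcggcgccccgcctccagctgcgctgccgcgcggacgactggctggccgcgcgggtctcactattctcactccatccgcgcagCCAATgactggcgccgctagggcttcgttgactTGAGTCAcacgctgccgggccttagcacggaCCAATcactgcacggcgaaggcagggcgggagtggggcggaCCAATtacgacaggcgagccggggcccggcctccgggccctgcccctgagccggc
Lss: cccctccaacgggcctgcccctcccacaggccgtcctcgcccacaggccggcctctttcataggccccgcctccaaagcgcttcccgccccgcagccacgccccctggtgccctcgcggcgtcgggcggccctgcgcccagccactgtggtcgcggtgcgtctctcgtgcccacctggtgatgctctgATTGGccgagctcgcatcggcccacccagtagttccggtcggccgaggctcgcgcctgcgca

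Each motif stood in promoters of both higher and lower genes. GAGGAA stood in 25.6% of the 1420 higher genes with a promoter in the table, in 20.6% of the 1072 lower genes and in 23.1% of all 27025 promoters. CCAAT stood in 34.5% of the higher genes, 39.4% of the lower genes and 34.5% of all promoters. TTTGAA stood in 10.6% of the higher genes, 12.6% of the lower genes and 16.3% of all promoters. TGANTCA, the site of AP-1, stood in 5.35% of the higher genes, 4.38% of the lower genes and 6.87% of all promoters. The set of all promoters was not limited to genes kept, from which the higher and lower genes were drawn, so these shares are not matched. Single lists lay further from the share of all promoters. GAGGAA stood in 8 of 10 macrophage genes (80.0%) and 4 of 10 pan-leukocyte genes (40.0%), and also in 6 of 11 YAP and TEAD targets (54.5%), a list with lower genes. CCAAT stood in 18 of 20 mitosis genes (90.0%), 14 of 15 cholesterol synthesis genes (93.3%) and 11 of 20 S phase genes (55.0%), but in 2 of 14 Myc target and ribosome biogenesis genes (14.3%), and in 4 of 10 macrophage genes (40.0%). TTTGAA stood in 7 of 20 mitosis genes (35.0%) and 3 of 10 pan-leukocyte genes (30.0%), but in 2 of 20 S phase genes, a share below that of all promoters. These shares rest on few genes, the marked matches share no bases with each other, and a match describes the letters of the window and is no evidence of binding.

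Macrophage genes made the top of the higher set. Lyz2 (ENSMUSG00000069516.7), the lysozyme of myeloid cells, was between 345 and 2727 FPKM (median 1242) in the 25/38/72 libraries, against 0.9105, 1.05, 0.608 and 1.01 FPKM in the 35/36 libraries. C1qa, a further chain of C1q, was between 167 and 802 FPKM (median 485) in the 25/38/72 libraries, against 0.184, 0.125, 0.09035 and 0.0881 FPKM in the 35/36 libraries. Both had their highest value in metastasis 38, and the sets were far apart. Ctss was between 119 and 634 FPKM (median 339) in the 25/38/72 libraries, against 0.0673, 0.152, 0.132 and 0.193 FPKM in the 35/36 libraries. C1qb was between 116 and 488 FPKM (median 283) in the 25/38/72 libraries, against 0.0436, 0.0787, 0.0428 and 0.0417 FPKM in the 35/36 libraries. The last of the C1q chains, C1qc, had the same order, between 106 and 469 FPKM in the 25/38/72 libraries but at most 0.148 FPKM in the 35/36 libraries.

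All 15 genes of the macrophage list were higher, with a median difference of 4.95, beside 14.7% and -0.035 over all genes kept. Since the sets were drawn on such genes, this count is no result of its own. Adgre1, which encodes the macrophage antigen F4/80, was between 2.085 and 33.5 FPKM (median 8.93) in the 25/38/72 libraries and listed at 0 in all of the 35/36 libraries. Csf1r, the receptor of the macrophage growth factor, was between 13.6 and 56.8 FPKM in the 25/38/72 libraries but at most 0.0680 FPKM in the 35/36 libraries. The list summed to between 1204 and 5947 FPKM in the 25/38/72 libraries, against 13.5 to 17.6 FPKM in the 35/36 libraries. Most of the 35/36 sum was Cd14, a co-receptor for endotoxin, which was between 36.4 and 114 FPKM (median 85.6) in the 25/38/72 libraries, against 10.1, 14.8, 12.55 and 12.3 FPKM in the 35/36 libraries.

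Other named genes among the 15 largest higher differences belong to myeloid cells, antigen presentation, red cells and the acute phase. Arg1, the arginase of some activated macrophages and of hepatocytes, was between 156.5 and 778 FPKM (median 261) in the 25/38/72 libraries, against 0.0305, 0.165, 0.0599 and 0.0876 FPKM in the 35/36 libraries. It was highest in metastasis 25, in which Lyz2 was lowest. Cd74, the invariant chain of MHC class II, was between 54.8 and 2146 FPKM (median 1273) in the 25/38/72 libraries, against 0.229, 0.412, 0.374 and 0.109 FPKM in the 35/36 libraries. Its lowest value was also that of metastasis 25. Tyrobp, an adaptor of myeloid receptors, was between 65.2 and 247 FPKM in the 25/38/72 libraries, against 0.103, 0.0937, 0 and 0 FPKM in the 35/36 libraries. Ccl6, a chemokine of myeloid cells, and Srgn, the proteoglycan of secretory granules, were between 108 and 347 FPKM and between 106 and 264 FPKM in the 25/38/72 libraries, against at most 0.239 and 1.04 FPKM in the 35/36 libraries. Serping1, the inhibitor of C1, was between 45.5 and 284 FPKM in the 25/38/72 libraries but at most 0.157 FPKM in the 35/36 libraries. Saa3, an acute phase apolipoprotein of macrophages and stroma, was between 12.2 and 508 FPKM (median 174) in the 25/38/72 libraries and listed at 0 in all of the 35/36 libraries. In the 35/36 libraries none of these genes reached 2 FPKM.

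Further leukocyte lists held the same order, though the 6 libraries differed among themselves. All 14 genes of the pan-leukocyte list were higher (median 4.07), with summed values of 260 to 1195 FPKM in the 25/38/72 libraries, against 5.30 to 11.8 FPKM in the 35/36 libraries. Ptprc, the leukocyte antigen CD45, was between 4.34 and 46.05 FPKM (median 11.6) in the 25/38/72 libraries, against 0.0178, 0, 0.00875 and 0.00852 FPKM in the 35/36 libraries. Cd52, a surface glycoprotein of lymphocytes and monocytes, was between 25.8 and 428 FPKM (median 116) in the 25/38/72 libraries and was listed above 0 in primary 36 alone of the 35/36 libraries, at 0.114 FPKM. Of 7 MHC class II genes 6 were higher, and H2-Aa, an alpha chain, ran between 0.921 and 874 FPKM (median 62) in the 25/38/72 libraries, against 0.0613, 0.111, 0.0602 and 0.255 FPKM in the 35/36 libraries. Of the T and NK cell genes, 7 of the 10 kept were higher. Those listed at 0 in the 35/36 libraries were kept only through the 25/38/72 libraries, so this count is no result of its own. Cd3e, a chain of the T cell receptor complex, was between 0.192 and 8.83 FPKM (median 5.94) in the 25/38/72 libraries and listed at 0 in the 35/36 libraries, as were 9 of the 12 genes of that list. Without metastasis 38 the higher T and NK cell genes were 4 of 7 kept, beside 14.4% of all genes in that setting, and without metastasis 25 they were 9 of 10, beside 15.9%.

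Metastasis 25 stood apart within the 6. Its neutrophil list summed to 12749 FPKM, against 21.8 to 241 FPKM in the other 25/38/72 libraries but at most 0.217 FPKM in the 35/36 libraries. S100a8, a calcium-binding protein of neutrophils, was 3926 FPKM there and between 4.52 and 29.5 FPKM in the other 25/38/72 libraries, and was listed at 0 in the 35/36 libraries. Lcn2, the iron-scavenging lipocalin of neutrophils and stressed epithelia, was between 3.59 and 1010 FPKM (median 66.1) in the 25/38/72 libraries, against 0.108, 0.111, 0.0601 and 0 FPKM in the 35/36 libraries. Haemoglobin transcripts followed, with the caution that near-identical copies share reads: Hbb-bs was between 8.31 and 18065 FPKM (median 151) in the 25/38/72 libraries, against 0.177, 0, 0.0868 and 0 FPKM in the 35/36 libraries. Hba-a1 was between 6.35 and 10446 FPKM in the 25/38/72 libraries, against 0.126, 0.5535, 0.714 and 0.231 FPKM in the 35/36 libraries, and its highest value was again that of metastasis 25.

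Organ markers did not follow the labelled site. The hepatocyte list summed to 31174 FPKM in metastasis 25, 3514 FPKM in primary 72, 911 FPKM in metastasis 72, 404 FPKM in primary 38, 403 FPKM in primary 25 and 133 FPKM in metastasis 38, against 4.33 to 20.9 FPKM in the 35/36 libraries. Alb, serum albumin, was between 0.159 and 9850 FPKM (median 76) in the 25/38/72 libraries, against 0.0426, 0.134, 0.1885 and 0.102 FPKM in the 35/36 libraries. The values of metastasis 38 (0.159 FPKM) and primary 38 (0.18 FPKM) lay within the range of the 35/36 libraries, so Alb overlapped, and 2 libraries labelled metastasis (35 and 36) held 0.0426 and 0.134 FPKM. Trf, the iron carrier of plasma, did separate the sets, with between 125 and 10774 FPKM (median 455.5) in the 25/38/72 libraries, against 18.9, 3.97, 3.40 and 6.84 FPKM in the 35/36 libraries. Of the 9 hepatocyte genes kept, 4 were higher, 2 under quantile normalization (10.9% of all genes) and 8 of 12 among the metastasis libraries alone (19.3%). For genes near 0 in the 35/36 libraries the expression minimum favoured these calls. The skeletal muscle list summed to 7146 FPKM in metastasis 38 and 546 FPKM in primary 72, against at most 23.1 FPKM in the other 25/38/72 libraries and 1.73 to 34.4 FPKM in the 35/36 libraries. The islet list summed to 6427 FPKM in primary 25, in which the insulin gene Ins2 was 5163 FPKM, against at most 23.4 FPKM in the other 25/38/72 libraries and 15.4 to 18.7 FPKM in the 35/36 libraries, where the islet and progenitor factor Pdx1 made up nearly all of it. All 10 libraries are labelled as cell lines. Every 25/38/72 library held macrophage and endothelial transcripts, and some held those of liver, muscle or islets. The source of these transcripts was not tested. In the 35/36 libraries Adgre1, Ptprc, Pecam1 and Ins2 were at or near 0, but other members of the host lists were present. In them Cd14 was between 10.1 and 14.8 FPKM and Trf between 3.40 and 18.9 FPKM. Cdh5 was between 3.32 and 7.61 FPKM and Col1a1 between 148.5 and 170.4 FPKM.

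**Figure D2:**
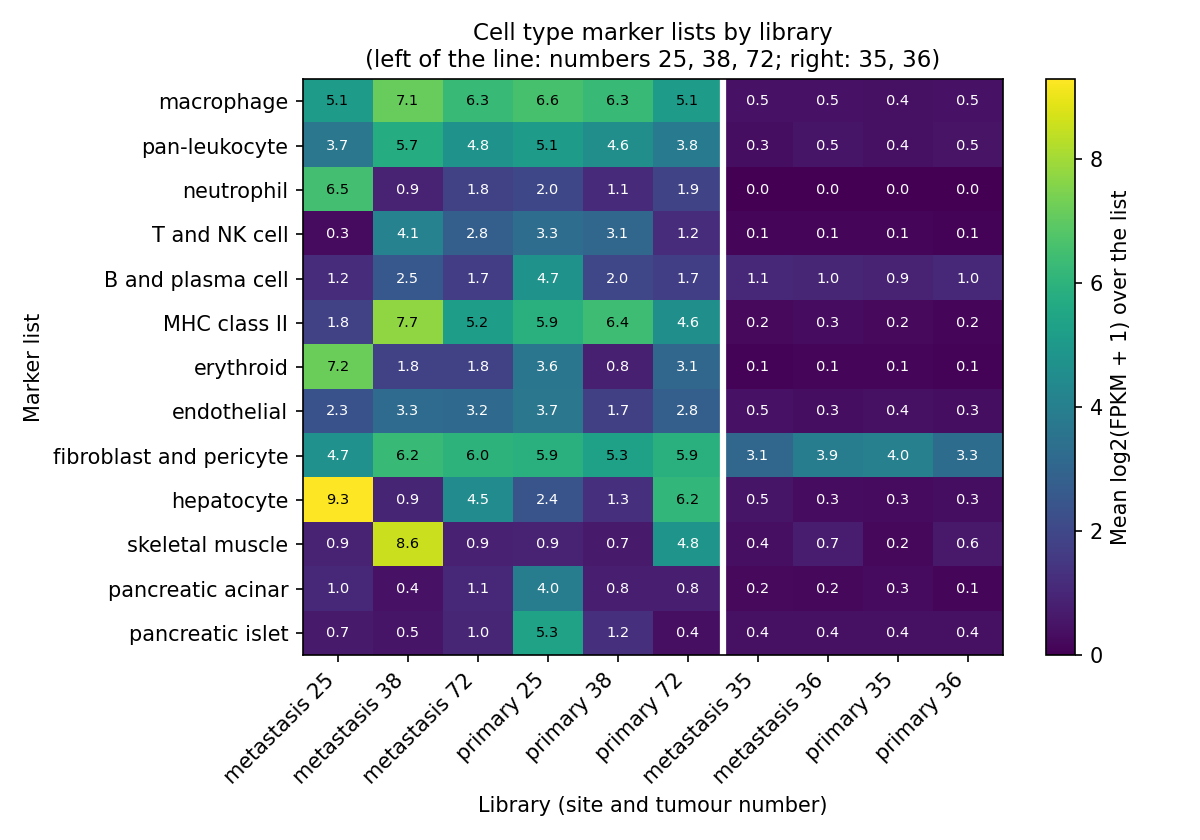
Each cell gives the mean log2(FPKM + 1) of a marker list (rows) in a library (columns), with the 25/38/72 libraries left of the white line and the 35/36 libraries right of it. Macrophage and pan-leukocyte lists are at or above 3.69 in every 25/38/72 library and at or below 0.52 in every 35/36 library. The hepatocyte list is high in several of the 25/38/72 libraries and the muscle list in metastasis 38 and primary 72. The acinar and islet lists are high in primary 25 alone, and the fibroblast list is at or above 3.07 in all 10.

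Vessel and stroma genes separated the sets less evenly. Of the 11 endothelial genes kept 10 were higher, beside 14.7% of all genes kept, with a median difference of 2.82. Here too the expression minimum favoured the higher call of genes near 0 in the 35/36 libraries. Pecam1, the endothelial and leukocyte antigen CD31, was between 5.14 and 26.25 FPKM (median 10.6) in the 25/38/72 libraries, against 0.0341, 0.0126, 0.0275 and 0.0134 FPKM in the 35/36 libraries. Cdh5, the cadherin of endothelial junctions, overlapped: it was between 3.03 and 12.2 FPKM (median 7.91) in the 25/38/72 libraries and 7.61, 4.34, 4.83 and 3.32 FPKM in the 35/36 libraries. The 35/36 libraries thus held Cdh5 within the range of the 6, while Tie1 and Sox18, also endothelial, were listed at 0 in them. Of 14 fibroblast and pericyte genes 4 were higher, 7 without metastasis 25 (15.9% of all genes), 7 among the primary libraries alone (16.6%) and 6 among the metastasis libraries alone (19.3%). Dcn, the matrix proteoglycan decorin, was between 31.4 and 403 FPKM (median 187) in the 25/38/72 libraries, against 0.973, 1.52, 19.3 and 3.92 FPKM in the 35/36 libraries. Collagen I transcripts were present in both sets: Col1a1 was between 32.4 and 572 FPKM (median 209.5) in the 25/38/72 libraries and 158, 170.4, 149 and 148.5 FPKM in the 35/36 libraries, which overlap.

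The 35/36 libraries were not alike in stroma genes. Lum, the proteoglycan lumican, was 30.3 FPKM in primary 35 and no more than 0.2255 FPKM in the other 35/36 libraries, so that it overlapped the 25/38/72 range of 23.2 to 71.9 FPKM. Metastasis 36 was high in 3 other genes of contractile or matrix-forming cells. Tagln, a smooth muscle actin-binding protein, was 28.4 FPKM there and no more than 2.13 FPKM in the other 35/36 libraries. Postn, the matrix protein periostin, was 25.3 FPKM there and no more than 1.00 FPKM in the other 35/36 libraries. Tnc, tenascin C, was 16.6 FPKM there and no more than 0.402 FPKM in the other 35/36 libraries. Acta2, smooth muscle actin, overlapped, with between 11.2 and 116 FPKM (median 87.2) in the 25/38/72 libraries and 119, 201, 268 and 93.9 FPKM in the 35/36 libraries.

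Xist, the RNA of the inactive X chromosome, separated the sets but was uneven among the 6. It was 1.10, 158 and 46.1 FPKM in metastasis 25, 38 and 72 and 0.431, 57.3 and 109 FPKM in primary 25, 38 and 72, against 0.00674, 0.00202, 0.173 and 0.00859 FPKM in the 35/36 libraries. Metastasis 25 and primary 25 were thus low, and the libraries of numbers 38 and 72 high. The Y-linked genes kept overlapped. Ddx3y, an RNA helicase gene, had 6.63 to 18.3 FPKM in the 25/38/72 libraries and 3.77, 10.8, 20.15 and 9.90 FPKM in the 35/36 libraries, and Eif2s3y and Uty were also present in all 10. Kdm5d was listed at 0 in all libraries but primary 38 (0.0102 FPKM).

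The most abundant transcripts of the 35/36 libraries, outside the mitochondrial, ribosomal protein and unnamed genes, were S100a6 and S100a4 (calcium-binding proteins of motile cells), Vim (the intermediate filament vimentin), Eef1a1 (a translation elongation factor), Actb, Lgals1 (galectin 1) and Fn1 (fibronectin). Vim was between 1443 and 5498 FPKM (median 2861) in the 25/38/72 libraries and 5443, 6667, 6158 and 5776 FPKM in the 35/36 libraries, and the value of metastasis 25 lay inside the 35/36 range. S100a4 was between 2604 and 14015 FPKM (median 4420) in the 25/38/72 libraries and 4391, 5834, 6264 and 5454 FPKM in the 35/36 libraries, a difference of -0.06. Of the 15 most abundant genes, 2 were lower, a share near the 14.0% of all genes kept, and none was higher. These were Tubb5, a tubulin, with between 378 and 588 FPKM (median 506) in the 25/38/72 libraries, against 1344, 1352, 1267 and 1277 FPKM in the 35/36 libraries, and Cox7b, a subunit of cytochrome oxidase. Cox7b was between 94.4 and 769 FPKM (median 469) in the 25/38/72 libraries, against 1371, 1617, 1554 and 1465 FPKM in the 35/36 libraries, and metastasis 72 and primary 25 had its lowest values.

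Factors that drive a mesenchymal state were at close levels in both sets. Twist1 was between 26.2 and 38.2 FPKM (median 30.5) in the 25/38/72 libraries and 29.9, 34.2, 30.4 and 32.4 FPKM in the 35/36 libraries, a difference of -0.03. Prrx1, a homeobox factor of mesenchyme, was between 31.7 and 65.7 FPKM (median 55.2) in the 25/38/72 libraries and 41.05, 46.8, 63.1 and 48.3 FPKM in the 35/36 libraries, a difference of -0.01. Zeb1, a repressor of epithelial genes, was between 9.10 and 21.7 FPKM (median 16.2) in the 25/38/72 libraries and 17.9, 12.2, 18.5 and 13.8 FPKM in the 35/36 libraries, a difference of 0.02. All 3 overlapped, and no library of either set stood far from the rest. Snai1, a repressor of E-cadherin, was higher: between 8.56 and 28.8 FPKM (median 15) in the 25/38/72 libraries, against 2.80, 2.745, 2.61 and 1.92 FPKM in the 35/36 libraries. Cdh2, N-cadherin, was lower, with between 5.32 and 17.6 FPKM (median 12.8) in the 25/38/72 libraries, against 55.3, 63, 51.3 and 49.2 FPKM in the 35/36 libraries. Of the 17 EMT and mesenchymal genes kept, 2 were higher and 2 lower, shares near the 14.7% and 14.0% of all genes kept, and the median of -0.01 changed to 0.02 with median ratio scaling and 0.07 with quantile normalization.

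The epithelial genes Cdh1, Epcam and Cldn4 were near 0 in the 35/36 libraries, whereas the simple keratins Krt8, Krt18 and Krt19 were not. Cdh1, E-cadherin, was between 1.90 and 8.71 FPKM (median 5.07) in the 25/38/72 libraries, against 0.0093, 0.291, 0.0128 and 0.0178 FPKM in the 35/36 libraries, and among the 35/36 libraries metastasis 36 was the highest. Epcam, an epithelial adhesion molecule, was between 0.857 and 15.2 FPKM (median 8.39) in the 25/38/72 libraries, against 0.02125, 0, 0 and 0.061 FPKM in the 35/36 libraries. Cldn4, a claudin of tight junctions, was between 0.0572 and 19.7 FPKM (median 3.96) in the 25/38/72 libraries and listed at 0 in the 35/36 libraries. In all of these metastasis 38 had the lowest of the 6 values. Krt8, a keratin of simple epithelia, was between 16.3 and 325 FPKM (median 151) in the 25/38/72 libraries and 312, 246, 107 and 273 FPKM in the 35/36 libraries. Its partner Krt18 was between 61.4 and 386 FPKM (median 239) in the 25/38/72 libraries and 277, 232, 129.7 and 194 FPKM in the 35/36 libraries. Both overlapped, and the lowest of the 10 values was that of metastasis 38 in each case. Krt19, a ductal keratin, was between 5.63 and 108 FPKM (median 52.1) in the 25/38/72 libraries and 17.3, 53.5, 30.1 and 29 FPKM in the 35/36 libraries, which also overlap. Of 16 epithelial genes kept 5 were higher and none was lower (median 1.32), and 8 of 16 were higher among the primary libraries alone, where 16.6% of all genes were higher. Among the metastasis libraries alone 7 of 18 were higher and 2 lower, beside 19.3% and 16.5% of all genes.

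Factors of pancreatic identity were present in the 35/36 libraries. Pdx1, the homeobox factor of the pancreas, was lower: between 4.59 and 9.52 FPKM (median 5.54) in the 25/38/72 libraries, against 15.7, 15.4, 18.2 and 18.7 FPKM in the 35/36 libraries. Foxa2, a factor of foregut endoderm, was lower as well, between 1.73 and 7.07 FPKM (median 5.38) in the 25/38/72 libraries, against 10.2, 11.4, 9.76 and 9.56 FPKM in the 35/36 libraries. Gata6, a factor of the classical subtype of pancreatic cancer, overlapped, with between 0.487 and 9.25 FPKM (median 1.93) in the 25/38/72 libraries and 0.4065, 0.814, 0.528 and 0.113 FPKM in the 35/36 libraries. Of 17 classical subtype genes only 4 were kept, and 7 were listed at 0 in all of the 35/36 libraries. Of 9 basal-like and squamous genes kept, 1 was higher and none lower (median -0.16). Among the metastasis libraries alone 2 of 10 were higher and 2 lower, shares near the 19.3% and 16.5% of all genes.

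The locus that names the line was listed at 0 in the 35/36 libraries. Cdkn2a, which encodes inhibitors of the cyclin D kinases and of Mdm2, was between 0 and 3.35 FPKM (median 0.699) in the 25/38/72 libraries and listed at 0 in all of the 35/36 libraries. Its neighbour Cdkn2b was between 0.248 and 4.87 FPKM (median 1.97) in the 25/38/72 libraries and also listed at 0 in all of the 35/36 libraries. Of the 13 genes kept of the list of this locus and its partners, 2 were higher (Cdkn2b and the kinase inhibitor gene Cdkn1a), 4 were lower and 7 were neither, with a median of -0.29. The 4 lower genes were Ccnd1, Ccnd2, Cdk4 and Trp53, and among the primary libraries alone 2 genes were lower, beside 13.5% of all genes. Ccnd1, cyclin D1, was between 81.6 and 414 FPKM (median 238) in the 25/38/72 libraries, against 638, 639, 766.5 and 755 FPKM in the 35/36 libraries. Ccnd2, cyclin D2, was between 1.03 and 22 FPKM (median 12.1) in the 25/38/72 libraries, against 38, 47.1, 25.3 and 42.5 FPKM in the 35/36 libraries. Cdk4, the kinase they activate, was between 206 and 350.2 FPKM (median 288) in the 25/38/72 libraries, against 651, 633, 614 and 660.2 FPKM in the 35/36 libraries. For each the lowest of the 35/36 values stood above every 25/38/72 value, and Ccnd2 came closest to overlap. Trp53, the tumour suppressor p53, was between 22.4 and 54.5 FPKM (median 30.2) in the 25/38/72 libraries, against 76.9, 81.5, 61 and 78.4 FPKM in the 35/36 libraries.

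Genes of cell division were mostly lower. Of 25 mitosis genes 20 were lower and none higher (median -1.84), beside 14.0% lower over all genes kept. Plk1, a kinase of spindle assembly, was between 7.62 and 29 FPKM (median 14.55) in the 25/38/72 libraries, against 86.2, 101, 103 and 125 FPKM in the 35/36 libraries, a difference of -2.74. Nusap1, which bundles spindle microtubules, was between 5.23 and 22.1 FPKM (median 15.5) in the 25/38/72 libraries, against 63, 113, 103 and 103 FPKM in the 35/36 libraries. Prc1, which holds the midzone of the spindle together, was between 16.5 and 88.2 FPKM (median 47.8) in the 25/38/72 libraries, against 268, 276.5, 250.1 and 306 FPKM in the 35/36 libraries. All 3 were separate, and metastasis 72 had the lowest value of each. Kif11 and Cdk1, whose promoters are printed above, were between 2.90 and 10.4 FPKM and between 43.1 and 149.5 FPKM in the 25/38/72 libraries, against 33.6 to 43.1 FPKM and 365 to 461 FPKM in the 35/36 libraries. Mki67, the antigen of cycling cells, was between 8.47 and 38.1 FPKM (median 29.6) in the 25/38/72 libraries, against 90.7, 86.45, 101 and 103 FPKM in the 35/36 libraries. Top2a, the topoisomerase that untangles chromosomes, did not separate, because the 253 FPKM of primary 38 exceeded the 229 FPKM of primary 35. Ccnb1, cyclin B1, did not separate either, with between 5.70 and 43.8 FPKM (median 20.8) in the 25/38/72 libraries and 41.7, 55.75, 48.65 and 53.2 FPKM in the 35/36 libraries.

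S phase genes were lower in 17 of 25 cases, with a median of -1.40. Mcm2, a subunit of the replicative helicase, was between 16.4 and 35.5 FPKM (median 22.6) in the 25/38/72 libraries, against 105, 88.05, 90.8 and 91.8 FPKM in the 35/36 libraries. Rrm2, a subunit of ribonucleotide reductase, was between 11.2 and 55 FPKM (median 24) in the 25/38/72 libraries, against 94.5, 108, 106 and 93.3 FPKM in the 35/36 libraries. Tyms, thymidylate synthase, was between 22.35 and 46.6 FPKM (median 26.7) in the 25/38/72 libraries, against 137, 112, 122 and 124 FPKM in the 35/36 libraries. The sets were separate for all 3. Gins2, a part of the helicase complex, and Pcna, the sliding clamp of DNA polymerase, were between 12.5 and 34.7 FPKM and between 24.5 and 64 FPKM in the 25/38/72 libraries, against 76.05 to 89.4 FPKM and 90.6 to 129 FPKM in the 35/36 libraries. E2f1, the factor that opens S phase, overlapped, with between 11.2 and 25.1 FPKM (median 20.6) in the 25/38/72 libraries and 22.7, 21.3, 28.1 and 21.4 FPKM in the 35/36 libraries. Hells, a chromatin remodeller of dividing cells and among the 15 largest lower differences of named genes, was between 3.85 and 17 FPKM (median 4.85) in the 25/38/72 libraries, against 56.8, 57.5, 63.5 and 53.5 FPKM in the 35/36 libraries.

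The mitosis list summed to between 315 and 1218 FPKM in the 25/38/72 libraries, against 2493 to 3077 FPKM in the 35/36 libraries. In the same libraries the macrophage list ran the other way (1204 to 5947 FPKM in the 25/38/72 libraries, against 13.5 to 17.6 FPKM in the 35/36 libraries). The share of tumour cells in a library and the level per tumour cell cannot be told apart, and the part of host transcripts in the lower calls was not tested. Among the 6, the library with the lowest mitosis sum (metastasis 72, 315 FPKM) had a macrophage sum of 3033 FPKM, and that with the highest macrophage sum (metastasis 38, 5947 FPKM) had a mitosis sum of 819 FPKM. Primary 72, with the lowest macrophage sum (1204 FPKM), had the highest mitosis sum (1218 FPKM). Primary 38 came close to it in mitosis sum (1215 FPKM), with a macrophage sum of 3159 FPKM. Metastasis 25 and primary 25 had mitosis sums of 938 and 1006 FPKM and macrophage sums of 1293 and 3798 FPKM.

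Myc targets and ribosome biogenesis genes were lower in 17 of 20 cases, with a median of -1.52. Nop56, a core protein of the box C/D particles that modify ribosomal RNA, was between 39 and 105 FPKM (median 48.6) in the 25/38/72 libraries, against 476, 502, 334 and 389 FPKM in the 35/36 libraries, a difference of -2.88. Cad, the enzyme that opens pyrimidine synthesis, was between 5.065 and 12.2 FPKM (median 7.73) in the 25/38/72 libraries, against 71.4, 52.2, 53.6 and 72.1 FPKM in the 35/36 libraries. Dkc1, the pseudouridine synthase dyskerin, was between 9.93 and 14.7 FPKM (median 12.6) in the 25/38/72 libraries, against 83.3, 88.8, 68.7 and 69.6 FPKM in the 35/36 libraries. For all 3 the gap between the sets was wider than the range of the 6. Fbl, the methyltransferase fibrillarin, was between 11.4 and 20.5 FPKM (median 13.1) in the 25/38/72 libraries, against 59.5, 41.8, 54.15 and 70.8 FPKM in the 35/36 libraries. Myc itself was between 26.8 and 71.3 FPKM (median 35.4) in the 25/38/72 libraries, against 95.6, 92.5, 73.5 and 90.65 FPKM in the 35/36 libraries, and metastasis 25 came within 3 FPKM of primary 35. Npm1, the nucleolar protein nucleophosmin, overlapped, with between 306.5 and 734 FPKM in the 25/38/72 libraries and 345 to 491 FPKM in the 35/36 libraries. The list mean lay between 4.59 and 4.97 on the log2 scale in the 25/38/72 libraries, against 6.19 to 6.58 in the 35/36 libraries.

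Of 25 ribosomal protein genes, 3 were higher and none was lower (median 0.34), beside 14.7% and 14.0% of all genes kept, and their many near-identical copies make single values uncertain. Of 22 oxidative phosphorylation genes, 1 was lower and none higher (median 0.03). Uqcrc1, a core subunit of complex III, was that gene, with between 51.8 and 112 FPKM (median 86.4) in the 25/38/72 libraries, against 167, 199, 156 and 185 FPKM in the 35/36 libraries. Without metastasis 25, 3 genes of that list were lower, beside 14.3% of all genes in that setting. Among the metastasis libraries alone 2 were higher and 1 lower, beside 19.3% and 16.5%. Cox7b of complex IV, given above as lower, is not on that list, and its difference was -2.20.

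**Figure D3:**
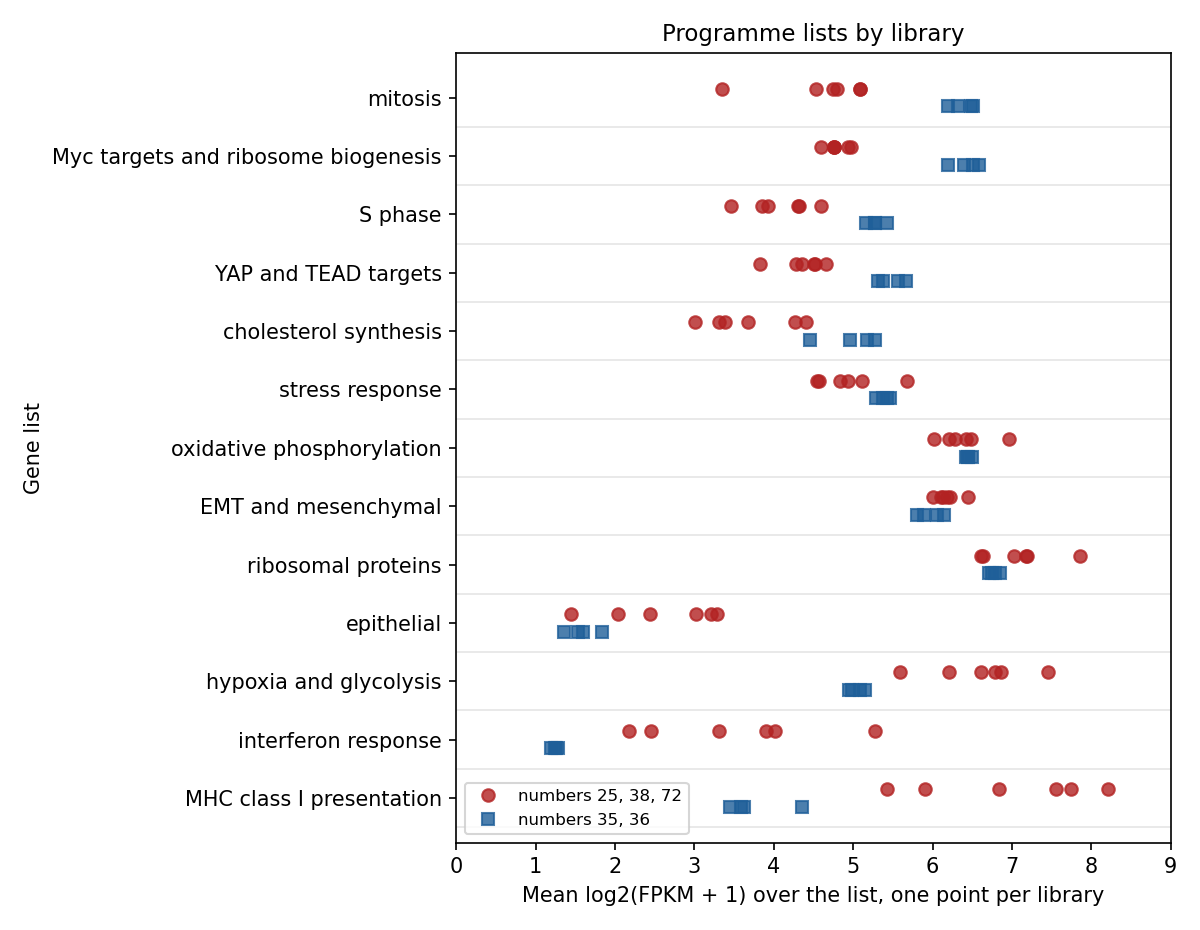
Each point is the mean log2(FPKM + 1) of a gene list in 1 library, with red circles for the 25/38/72 libraries above blue squares for the 35/36 libraries. The mitosis list lies between 3.35 and 5.09 in the 25/38/72 libraries and between 6.19 and 6.51 in the 35/36 libraries, and the interferon list between 2.18 and 5.27 in the 25/38/72 libraries and between 1.19 and 1.28 in the 35/36 libraries, while the oxidative phosphorylation and EMT lists overlap.

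Cholesterol synthesis genes were lower in 11 of 21 cases, with a median of -1.17. Msmo1 was between 15.7 and 86.7 FPKM (median 24.7) in the 25/38/72 libraries, against 257, 157, 327 and 217.5 FPKM in the 35/36 libraries, a difference of -2.81. Lss was between 2.30 and 9.155 FPKM (median 4.45) in the 25/38/72 libraries, against 38.3, 19.5, 41 and 35.1 FPKM in the 35/36 libraries. In both of these metastasis 36 was the lowest of the 35/36 libraries, and it remained above all of the 25/38/72 libraries. Sqle, squalene epoxidase, was between 10.4 and 31.8 FPKM (median 15.2) in the 25/38/72 libraries, against 94.5, 48.7, 102 and 68.3 FPKM in the 35/36 libraries. The list summed to between 183 and 595 FPKM in the 25/38/72 libraries, against 711 to 1185 FPKM in the 35/36 libraries.

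Of the 18 genes of the stress response list 6 were lower, 1 was higher and 11 were neither, with a median of -0.16. With quantile normalization 3 were higher and 6 lower, beside 10.9% and 15.5% of all genes. Among the metastasis libraries alone 6 were higher and 6 lower, beside 19.3% and 16.5%. The lower genes were Chac1 and the 5 given here, which were picked because they were called. Asns, asparagine synthetase, was between 6.27 and 46.2 FPKM (median 17.5) in the 25/38/72 libraries, against 112, 183, 147 and 164 FPKM in the 35/36 libraries, a difference of -3.10. Phgdh and Psat1, the entry enzymes of serine synthesis, were between 12.5 and 33.5 FPKM and between 31.5 and 70.6 FPKM in the 25/38/72 libraries, against 100.2 to 123 FPKM and 221 to 276 FPKM in the 35/36 libraries. Shmt2, which feeds serine into folate metabolism of the mitochondrion, was between 19.05 and 45.4 FPKM in the 25/38/72 libraries, against 95.8 to 122.5 FPKM in the 35/36 libraries. Slc7a5, a transporter of large amino acids, was between 17.4 and 57.6 FPKM in the 25/38/72 libraries, against 109 to 157.5 FPKM in the 35/36 libraries. These 5 are known targets of Atf4, which overlapped between the sets (between 189 and 282 FPKM (median 223) in the 25/38/72 libraries and 244, 277, 217 and 234 FPKM in the 35/36 libraries). Atf3, a further stress-induced factor, ran the other way, with a difference of 2.43. It was between 4.01 and 39 FPKM in the 25/38/72 libraries, against 1.07 to 1.74 FPKM in the 35/36 libraries.

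Targets of YAP and TEAD, the effectors of the Hippo pathway, were lower in 8 of 16 cases, with a median of -1.25. Crim1, a transmembrane protein of the cell surface, was between 3.825 and 8.24 FPKM (median 4.06) in the 25/38/72 libraries, against 69.2, 59.7, 36.35 and 36.3 FPKM in the 35/36 libraries. Ankrd1, a nuclear ankyrin protein, was between 9.14 and 186 FPKM (median 50.9) in the 25/38/72 libraries, against 397, 507, 225 and 270.4 FPKM in the 35/36 libraries. Axl, a receptor tyrosine kinase of mesenchymal tumour cells, was between 102 and 178 FPKM (median 156) in the 25/38/72 libraries, against 467, 409, 415 and 459 FPKM in the 35/36 libraries. All 3 were separate, Ankrd1 least so, with metastasis 38 near primary 35. Ctgf, a matrix-associated growth factor, was between 47 and 232 FPKM in the 25/38/72 libraries, against 268 to 456 FPKM in the 35/36 libraries. Amotl2, a scaffold that restrains YAP, was between 4.25 and 16.9 FPKM in the 25/38/72 libraries, against 43.9 to 69.4 FPKM in the 35/36 libraries. Yap1 itself overlapped, with between 25.9 and 32.4 FPKM (median 30.5) in the 25/38/72 libraries and 33.4, 38.1, 31.1 and 34.4 FPKM in the 35/36 libraries.

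The largest lower differences of named genes included pump, caveolar and enzyme genes beside short RNAs. Atp1b1, the beta subunit of the sodium pump, was between 10.5 and 53.1 FPKM (median 15.6) in the 25/38/72 libraries, against 335, 218, 222 and 189 FPKM in the 35/36 libraries. Ptgds, prostaglandin D synthase, was between 0 and 1.54 FPKM (median 0.534) in the 25/38/72 libraries, against 43.1, 19.5, 6.135 and 33.5 FPKM in the 35/36 libraries. Primary 35 was the lowest of the 4 for Ptgds, and still above the highest of the 6. Sdpr, a caveolar protein, was between 18 and 36.6 FPKM (median 25.5) in the 25/38/72 libraries, against 228.5, 330.2, 158 and 191 FPKM in the 35/36 libraries. B3gnt2, which extends sugar chains with lactosamine, was between 0.4095 and 3.42 FPKM (median 0.6835) in the 25/38/72 libraries, against 20.95, 18.5, 15.4 and 17.1 FPKM in the 35/36 libraries. Adh7, an alcohol dehydrogenase of epithelia, was between 0.011 and 0.5435 FPKM (median 0.142) in the 25/38/72 libraries, against 8.64, 5.58, 13.5 and 11.3 FPKM in the 35/36 libraries. It reached 1 FPKM in the 35/36 libraries alone. Ulbp1, a ligand of the NK cell receptor NKG2D, was between 1.84 and 6.09 FPKM (median 2.51) in the 25/38/72 libraries, against 35.1, 29.8, 36 and 30.4 FPKM in the 35/36 libraries.

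Asns, Crim1 and Hells, given above, also belong to the 15 largest lower differences of named genes, as did 5 short RNA genes. Mir719 (chr14:60228806-60228915), Mir6340 (chr2:173701030-173701148), Snora15, Snora28 and Snora16a span 110 to 136 bases in GENCODE M21 on GRCm38. Mir719 was between 0 and 322 FPKM (median 101) in the 25/38/72 libraries, against 591, 2281, 1039 and 1321 FPKM in the 35/36 libraries. Snora28 was between 0 and 10.85 FPKM (median 4.555) in the 25/38/72 libraries, against 116, 94, 197.5 and 19 FPKM in the 35/36 libraries. Both were listed at 0 in 3 of the 6 libraries and varied widely among the 4. At such lengths few fragments make a large FPKM, and their values are uncertain. Unnamed gene models made up 570 of the 1925 lower calls and 188 of the 2026 higher calls.

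**Figure D4:**
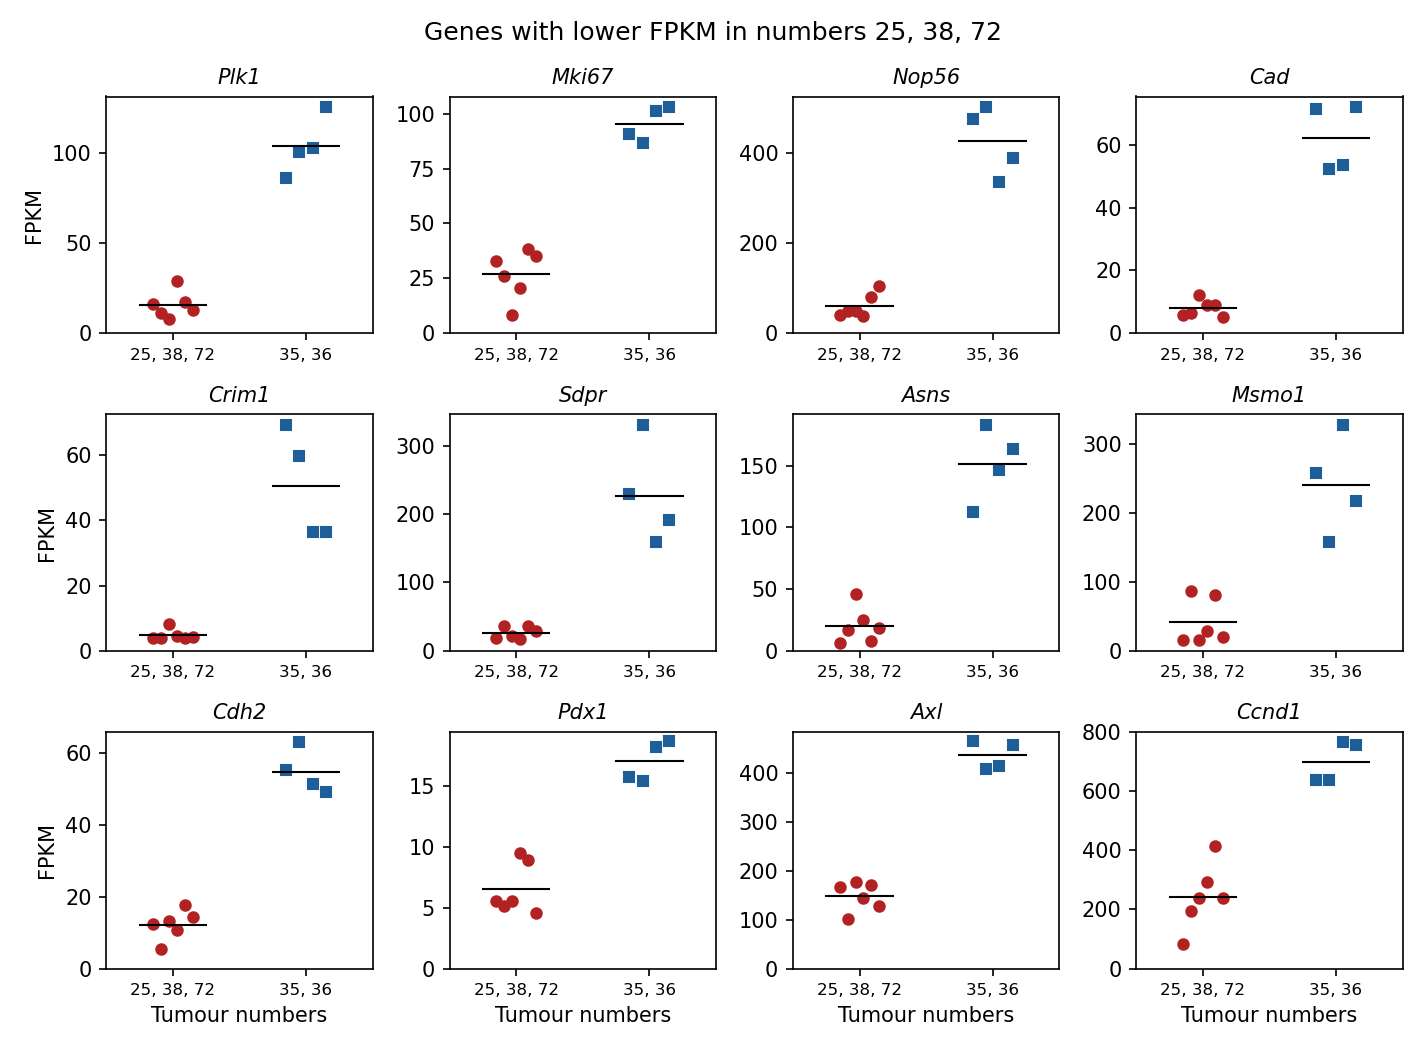
FPKM of 12 lower genes, 1 panel each, with a red circle for each 25/38/72 library at the left, a blue square for each 35/36 library at the right and a black line at the mean of the set; each vertical axis starts at 0. In every panel all of the 25/38/72 points lie below all of the 35/36 points, as the call demands.

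Signalling output was mixed. Fosl1, an AP-1 subunit induced by ERK, was lower, with between 18.3 and 59.8 FPKM (median 31.4) in the 25/38/72 libraries, against 129.7, 147, 115 and 110.0 FPKM in the 35/36 libraries. Dusp6, the phosphatase induced by ERK, overlapped, with between 34.6 and 111 FPKM (median 86.6) in the 25/38/72 libraries and 61.6, 65.4, 64.5 and 71.15 FPKM in the 35/36 libraries. Of 16 MAPK output genes 2 were lower and none higher, and the median of 0.09 changed sign to -0.03 with quantile normalization. Among the primary libraries alone 2 were higher and 4 lower (median -0.05), beside 16.6% and 13.5% of all genes. Among the metastasis libraries alone 1 was higher and 5 lower (median -0.11), beside 19.3% and 16.5%. Fos, an AP-1 subunit of the immediate early response, was higher instead, between 7.60 and 35.6 FPKM (median 21) in the 25/38/72 libraries, against 0.267, 0.9845, 0.362 and 0.515 FPKM in the 35/36 libraries. Dusp1, a phosphatase of the same response, was between 11.7 and 59.3 FPKM in the 25/38/72 libraries, against 3.46 to 7.27 FPKM in the 35/36 libraries. Of 18 immediate early genes 4 were higher and 1 lower (median 0.79), beside 14.7% higher over all genes kept. Among the metastasis libraries alone 10 were higher, beside 19.3% of all genes, and among the primary libraries alone 5, beside 16.6%. Egfr, the EGF receptor, was between 1.77 and 24.5 FPKM (median 5.11) in the 25/38/72 libraries, against 0.268, 0.129, 0.259 and 0.0547 FPKM in the 35/36 libraries. It was the only called gene of 9 EGF ligands and receptors kept, whose median of 0.57 changed to -0.05 with quantile normalization. Among the metastasis libraries alone 4 of the 9 were higher, beside 19.3% of all genes. Among the primary libraries alone 1 was higher and 1 lower, beside 16.6% and 13.5%. Epha2, an ephrin receptor, was lower, between 16.1 and 65.8 FPKM in the 25/38/72 libraries, against 76.25 to 98.6 FPKM in the 35/36 libraries.

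Of 15 TGF-beta targets 3 were higher and none was lower (median 0.54), a share near the 14.7% of all genes kept. Among the primary libraries alone 5 were higher, beside 16.6% of all genes. Tgfbi, a matrix protein induced by TGF-beta, was between 138 and 232 FPKM (median 168) in the 25/38/72 libraries, against 7.34, 11.3, 24.4 and 13.95 FPKM in the 35/36 libraries. Of 14 genes of invasion proteases and their inhibitors, 6 were higher and 1 was lower (median 0.92). Plat, tissue plasminogen activator, was between 26.75 and 76.1 FPKM (median 50.5) in the 25/38/72 libraries, against 0.809, 1.05, 2.60 and 1.65 FPKM in the 35/36 libraries. Mmp9, a gelatinase of myeloid and tumour cells, was between 4.61 and 50.6 FPKM (median 19.7) in the 25/38/72 libraries, against 0, 0.321, 0.013 and 0 FPKM in the 35/36 libraries. Metastasis 72 was the highest of the 6 for both proteases. Timp2, an inhibitor of metalloproteases, was the lower gene, between 149 and 292 FPKM (median 222.5) in the 25/38/72 libraries, against 459, 458, 554 and 481 FPKM in the 35/36 libraries. Of 13 integrin and adhesion genes kept, 4 were higher (Itga1, Itga5, Itgav and Itgb3, with differences of 1.14 to 2.30), 1 was lower and 8 were neither. Itga3, a laminin-binding integrin chain, was the lower gene, between 16.5 and 66 FPKM in the 25/38/72 libraries, against 67.8 to 127 FPKM in the 35/36 libraries. Of 5 oncofetal genes kept, the imprinted genes H19 and Peg3 were higher, by 3.93 and 1.65, and none was lower (median -0.07). Among the metastasis libraries alone 7 were kept, of which 4 were higher and 1 lower (median 1.93), beside 19.3% and 16.5% of all genes. With quantile normalization 2 of 6 were higher and 1 lower (median -0.35), beside 10.9% and 15.5%. Hmga2, a chromatin protein of that list, was between 65 and 188 FPKM (median 136) in the 25/38/72 libraries and 216.5, 285, 224 and 209 FPKM in the 35/36 libraries, a difference of -0.89 that did not reach 1.

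Hypoxia and glycolysis genes were higher in 8 of 22 cases and lower in none (median 1.29). Car9, the carbonic anhydrase that marks low oxygen, was between 14.5 and 139 FPKM (median 72.3) in the 25/38/72 libraries, against 1.16, 1.60, 1.41 and 1.49 FPKM in the 35/36 libraries, a difference of 4.45. Bnip3, a mitophagy receptor induced by HIF, was between 59.2 and 171 FPKM (median 104) in the 25/38/72 libraries, against 6.95, 4.85, 8.34 and 5.72 FPKM in the 35/36 libraries. Ndrg1, a further HIF-induced gene, was between 21.25 and 317 FPKM (median 109.9) in the 25/38/72 libraries, against 11.9, 7.05, 10.9 and 9.82 FPKM in the 35/36 libraries. Metastasis 25 and 38 had low values of Car9 and Ndrg1 among the 6, above all of the 35/36 libraries. Ldha, lactate dehydrogenase, did not reach a difference of 1, with between 623 and 1165 FPKM (median 819) in the 25/38/72 libraries and 602, 466, 534 and 574 FPKM in the 35/36 libraries. The list summed to between 2927 and 7068 FPKM in the 25/38/72 libraries, highest in metastasis 72, against 2286 to 2542 FPKM in the 35/36 libraries. Without metastasis 25 the count of higher genes was 13, beside 15.9% of all genes. Among the primary libraries alone it was 14, beside 16.6%, and among the metastasis libraries alone 9, beside 19.3%.

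Interferon and antigen presentation genes were mostly higher. Of 16 interferon response genes kept 13 were higher and 1 was lower (median 2.69). Gbp2, a guanylate-binding protein, was between 2.20 and 347 FPKM (median 139) in the 25/38/72 libraries, against 0.135, 0.122, 0.233 and 0.194 FPKM in the 35/36 libraries. Irf1, a transcription factor of the interferon gamma response, was between 24.6 and 229.6 FPKM (median 112) in the 25/38/72 libraries, against 5.33, 7.29, 7.50 and 6.83 FPKM in the 35/36 libraries. Ifit2, an interferon-induced inhibitor of translation, was the lower gene, between 1.22 and 6.07 FPKM (median 2.11) in the 25/38/72 libraries, against 11.6, 7.93, 10.6 and 8.04 FPKM in the 35/36 libraries.

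Of 11 MHC class I genes 10 were higher, with a median of 3.0. H2-K1, a class I heavy chain with close copies, was between 340.3 and 1480 FPKM (median 595) in the 25/38/72 libraries, against 69.5, 96.85, 50.7 and 60.5 FPKM in the 35/36 libraries. B2m, the light chain, was between 1635 and 4104 FPKM (median 2409) in the 25/38/72 libraries, against 899, 1020, 798 and 663 FPKM in the 35/36 libraries. Psmb9, a subunit of the immunoproteasome, was between 13.5 and 532 FPKM (median 183) in the 25/38/72 libraries, against 0.46, 5.93, 1.47 and 1.31 FPKM in the 35/36 libraries. Tap1, the peptide transporter, was between 13.8 and 151 FPKM in the 25/38/72 libraries, against 1.66, 4.83, 1.52 and 1.73 FPKM in the 35/36 libraries. Metastasis 36 was the highest of the 35/36 libraries for these genes, and metastasis 38 the highest of the 6. Leukocytes also express most of these lists, and the macrophage sums given above move with them; their part in these calls was not tested.

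Secreted cytokines were higher in 11 of 16 genes kept and lower in 1 (median 2.23). Il1b, a cytokine of activated macrophages, was between 2.13 and 44.6 FPKM (median 31.1) in the 25/38/72 libraries and listed at 0 in the 35/36 libraries. Ccl2, the monocyte chemokine, was between 6.085 and 167 FPKM (median 62.75) in the 25/38/72 libraries, against 0.375, 0.113, 1.14 and 0.18 FPKM in the 35/36 libraries. Csf1, the growth factor of macrophages, ran the other way: between 22.9 and 61.65 FPKM (median 50.5) in the 25/38/72 libraries, against 144, 151, 87.7 and 123 FPKM in the 35/36 libraries. Its receptor Csf1r, given above, was thus near 0 in the libraries in which the ligand was high. Cxcl12, a chemokine of stroma, overlapped, with between 14.7 and 78.3 FPKM (median 27.5) in the 25/38/72 libraries and 147, 78.3, 61.5 and 188 FPKM in the 35/36 libraries. Il33, an alarmin, overlapped as well, between 1.46 and 198 FPKM (median 107) in the 25/38/72 libraries and 0.771, 25.5, 5.81 and 16.3 FPKM in the 35/36 libraries.

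Of 18 p53 targets 7 were higher and 1 was lower (median 0.08), beside 14.7% and 14.0% of all genes kept. With median ratio scaling and with quantile normalization the median was 0.11 and 0.02. Cdkn1a, the kinase inhibitor p21, was between 87.3 and 198 FPKM (median 120.0) in the 25/38/72 libraries, against 34.3, 33.8, 81.8 and 31.7 FPKM in the 35/36 libraries, and primary 35 came close to metastasis 25. Gadd45a, a stress-induced growth arrest gene, was between 58.3 and 228 FPKM (median 94.4) in the 25/38/72 libraries, against 17.2, 7.32, 9.37 and 9.72 FPKM in the 35/36 libraries. Aen, a nuclease induced by p53, was the lower gene, between 11.6 and 24.4 FPKM (median 21.3) in the 25/38/72 libraries, against 90.9, 72.2, 73.9 and 93.25 FPKM in the 35/36 libraries. Of 14 NRF2 targets, which answer oxidative stress, 1 was higher and 1 lower (median -0.19), both under the shares of all genes kept. Hmox1, heme oxygenase, was the higher gene, between 37.4 and 211 FPKM (median 72.8) in the 25/38/72 libraries, against 18.6, 29.7, 20.6 and 17.9 FPKM in the 35/36 libraries.

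At the limit of the call, genes just inside and just outside are given as values. The nearest higher genes were Dcaf6 (between 5.25 and 45.5 FPKM in the 25/38/72 libraries and 4.275 to 5.245 FPKM in the 35/36 libraries), Asgr1, Ipo13, Cd40 and Adgrd1. The nearest genes that missed the higher call were Cd3g, Smim22, Snord15b, Apoc4 and Ccl1, each listed at 0 in all of the 35/36 libraries and in at least 1 of the 25/38/72 libraries. On the lower side Zfp955b, Gne, Celf2, Rad51ap1 and Nid2 were just inside and Epha4, Dusp5, Ncl, Vim and Nsun3 just outside. Gne was between 4.52 and 16.9 FPKM (median 6.67) in the 25/38/72 libraries and 17 to 24.35 FPKM in the 35/36 libraries, and Nsun3 was between 1.38 and 4.055 FPKM (median 1.88) in the 25/38/72 libraries and 4.00 to 7.68 FPKM in the 35/36 libraries.

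Site was not used to form the sets, so metastasis was compared with primary within each set by a test. With limma over 13758 genes and Benjamini-Hochberg adjustment, 0 genes (0%) had a site difference that itself differed between the sets at an adjusted p under 0.05, and 137 did at an unadjusted p under 0.05. Within numbers 25, 38 and 72, 0 genes (0%) were called and 371 had an unadjusted p under 0.05. Within numbers 35 and 36, 0 genes (0%) were called and 54 had an unadjusted p under 0.05. The smallest adjusted p of the 3 limma tests was 0.996. With 3 and 2 libraries of each site, the size of the groups limits what such a test can call. The 4 groups also shared an estimate of the spread of each gene. Since the median SD was 0.46 over the 6 and 0.14 over the 4 libraries, this estimate carries the wider spread of the 25/38/72 libraries. S100a8, listed at 0 in all of the 35/36 libraries, had an SE of 2.42 within 35 and 36. The test within 35 and 36 and its SEs thus do not measure the spread of those libraries alone.

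Genes with the smallest unadjusted p of the site interaction are given for their values. Atf3, a stress-induced transcription factor, was 39, 20.9 and 19.2 FPKM in metastasis 25, 38 and 72, against 6.62, 4.01 and 5.01 FPKM in primary 25, 38 and 72. In the 35/36 libraries it was 1.45 and 1.74 FPKM in metastasis, against 1.17 and 1.07 FPKM in primary. Its metastasis values were thus above the primary values in both sets, by 2.09 (SE 0.31) within numbers 25, 38 and 72 and by 0.29 (SE 0.37) within 35 and 36, and limma's adjusted p was 0.996 and 1.0. Colec12, a scavenger receptor of vessels and stroma, was 55.55, 47.6 and 42.8 FPKM in metastasis 25, 38 and 72, against 30.5, 14.9 and 29.6 FPKM in primary. In metastasis 35 and 36 it was 11.3 and 8.87 FPKM, against 45.6 and 21.2 FPKM in primary 35 and 36. The direction was opposite in the 2 sets, and the interaction of 2.53 (SE 0.55) had an adjusted p of 1.0 in limma. Rpp25, a subunit of RNase P, had an interaction of -2.43 (SE 0.60), Vldlr, a lipoprotein receptor, of 2.64 (SE 0.66), and Gpc4, a cell surface proteoglycan, of 2.28 (SE 0.61). Shc2, an adaptor protein, Fgf7, a growth factor of stroma, and the histone gene Hist1h2bc completed the 8 genes, with interactions of 2.91, 2.17 and 1.71. The adjusted p of all 8 was 1.0 in limma.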

How the data were processed

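The values are FPKM as deposited by the authors, for 48516 identified genes in the 10 libraries. Lines without a gene identifier (37) were not used, and 0 columns belonged to other samples. Per the submitters' processing notes, Salmon, edgeR and mm8 were used, with no versions or roles, and what computed FPKM is not stated there. Of 40599 identifiers found with the same version in GENCODE M21 (GRCm38), 62.0% matched in locus exactly and 99.97% fell within it, so coordinates are given on GRCm38. No count model was used, because the unit is FPKM. How reads shared by near-identical, overlapping or antisense genes were assigned is not stated.

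Libraries were grouped by the site and number of the cell type label and by the 2 sets of numbers. Values were used as log2(FPKM + 1), which understates fold changes of low genes, after a minimum of 1 FPKM in at least 4 libraries, in Python 3.11.15. Of 630 listed genes in 41 lists, 628 matched by symbol and 2 by an older symbol. Site was tested with limma 3.58.1 in R 4.3.3 (4 groups of site and set, intensity trend, Benjamini-Hochberg adjustment). This fit was tried on simulated data in which each gene had the same spread in all libraries. The trial therefore does not cover the unequal spread of the 2 sets. The members and lists were chosen with earlier results of these data known. Named were, passing over unnamed gene models, the 15 largest differences in each direction, the 15 most abundant genes of the 35/36 libraries, 5 markers, members of lists described, 8 genes of the site interaction and 5 genes at each side of the limits, some of which are not reported here. Depth per library was between 15.6 and 30.3 M fragments, estimated from single-exon genes; the estimate and its counting error set no interval on FPKM here. Alternatives were another pseudocount (0.1), other minimums, other scalings, omission of each library, 1 site alone, medians, other difference limits and a block by number.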

Additional observations from a re-analysis of the deposited data

Results flagged for a closer look

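Values that lay far from the others of their set, by Dixon's test of the gap to the nearest value at its 95% limit, are given here on the log2(FPKM + 1) scale. Of 392 sets of values tested (single genes and lists, in each set of libraries), 32 had such a value, and chance alone flags about 1 in 20.

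Metastasis 25 stood apart in 6 sets. Its S100a8 was 11.94, against 2.46 to 4.93 in the other 25/38/72 libraries, and its neutrophil list mean was 6.50, against 0.87 to 2.01. It was low for Actb (9.26, against at least 10.81), for Amotl2 (2.39, against at least 3.83), for Dusp6 (5.15, against at least 6.21) and for Il33 (1.30, against at least 5.61). Metastasis 38 was low in 3 keratins, with Krt8 at 4.11, Krt18 at 5.96 and Krt19 at 2.73, against at least 7.04, 7.78 and 5.49 in the other 25/38/72 libraries. It was high for Snora15 (2.96, with the others at 0.00) and for the list of Hox genes (1.42, against at most 0.78). Metastasis 72 was low in mitosis genes, with Nusap1 at 2.64, Kif11 at 1.96 and the list mean at 3.35, against at least 3.88, 3.18 and 4.53 in the other 25/38/72 libraries. It was high for Crim1 (3.21, against at most 2.46).

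Primary 25 was high for Ins2 (12.33, against at most 3.17 in the other 25/38/72 libraries), the acinar protease gene Ctrb1 (7.76, against at most 2.82) and the immunoglobulin gene Igkc (10.84, against at most 5.59). Its acinar and islet list means, 3.95 and 5.34, compared with at most 1.06 and 1.24. Primary 38 was high for Fbl (4.42, against at most 3.90).

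Among the 35/36 libraries, metastasis 36 was high for Cdh1 (0.37, against at most 0.03), Tagln (4.88, against at most 1.64), Cdk1 (8.85, against at most 8.57), Tap1 (2.54, against at most 1.45), Mmp9 (0.40, against at most 0.02) and Tnc (4.14, against at most 0.49). Primary 35 was high for Lum (4.97, against at most 0.29), Cdkn1a (6.37, against at most 5.14) and Xist (0.23, against at most 0.01). Metastasis 35 was high for Actb (11.50, against at most 11.30) and low for Nusap1 (6.0, against at least 6.70). The values of Cdh1, Mmp9 and Xist in these libraries were all under 1 FPKM.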

How the results depend on the processing

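No gene changed from a higher to a lower call, or the reverse, under the alternatives tried. Without each library in turn, between 1891 and 2184 genes were higher, between 1845 and 2040 were lower, and the median difference lay between -0.065 and -0.026. With at least 5 FPKM in at least 4 libraries 1223 genes were higher. With no minimum difference 3234 genes were lower (2842 higher), and with a difference of at least 2 there were 871 higher and 340 lower. Of the 161 genes examined singly, 55 moved by more than their spread in 67 values. None of those called higher or lower reversed. A change of sign was not counted for genes without a call, such as S100a4, which lay between -0.34 and 0.14 without single libraries. Of the 41 lists, 20 moved in 54 values. The median of the 2 islet genes kept lay between -1.40 and 1.49 without single libraries.

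For the site tests, no expression minimum gave 4 genes for the interaction, 3 within numbers 25, 38 and 72 and 8 within 35 and 36, over 27673 genes. Without single libraries the counts were 0 to 0 for the interaction and for 35 and 36 and 0 to 1 within 25, 38 and 72, where 1 gene was called without metastasis 38 (smallest adjusted p 0.031 in limma). With a lone library in a group, that library is assumed to vary like the other groups. With the number as a block, limma called 0 genes in each of the 3 tests, with 179, 555 and 59 genes at an unadjusted p under 0.05. Deviations from the group means correlated between libraries of 1 number at -0.05 (25), 0.49 (38), -0.46 (72), 0.11 (35) and 0.11 (36). With 2 libraries in a group the deviations mirror each other, so the values of 35 and 36 are equal by construction. In groups of 3 the deviations are also tied, as they sum to 0. These correlations cannot decide whether the numbers pair the libraries. The main fit did not pair them, and the block by number is the alternative. Depth limits values of genes near 0, of which a listed 0 may be a failed estimate; the cause of each shift was not tested.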
